A study of Mus musculus with 6 samples.

Results

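The Dpt Aspn Mgp fibroblasts are the cells of the fetal mouse intestine with the highest share of transcripts from 5 genes for secreted proteins: Dpt, Aspn, Mgp, Ltbp2 and Fndc1. They number 634 of 12688 cells that passed a filter of at least 1000 detected genes and at most 5% mitochondrial transcripts, out of 13127 cells in all. The unique molecular identifiers (UMIs, each a counted RNA molecule) of the 5 genes were summed in each cell and divided by its total. The top 5% of cells with at least 2 such UMIs were taken, separately for barcodes with either of the 2 final digits in the file. The 8680 cells set against them are the remaining cells of the first and second barcode sets of the same ending.

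The tissue was small intestine from C57/BL6 embryos of a Pdgfra-H2BGFP line, in which the regulatory sequence of the receptor gene Pdgfra drives a nuclear green fluorescent protein. All groups carried this reporter, no other allele or treatment is given, and the embryos of an age were pooled. E13.5 had 4 replicates and E14.5 had 3, whereas E15.5 had 2, as did E16.5 and E18.5. The 6 samples form 4 groups. Ages E15.5 with E16.5 made up one experiment and the other ages the second, and each was loaded as a pair of wells of live cells without enrichment and 1 enriched well. Live cells had been sorted as negative for the dead-cell dye DAPI and the red-cell marker Ter119, and enriched cells for CD31, CD45, Epcam or a high PDGFRA-GFP signal.

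One matrix of raw UMI counts held every cell, and no label ties a barcode suffix to a sample, an age or an intestinal segment. The data were therefore treated as 1 unreplicated sample without tests, and the ranges in parentheses are 95% intervals for counting error only. The suffixes are used as technical sets, called A1, A2 and A3 for one final digit and B1, B2 and B3 for the other. Selected cells made up 6.36% of cells in A1, 6.13% in A2, 6.78% in B1 and 7.35% in B2, against 0.169% in A3 and 0.50% in B3. They numbered 287 in ending A and 347 in ending B. Their median depth was 8613 UMIs in ending A (13167 in the remaining cells) and 3909 in ending B (4181.5). The reads of the endings were assigned to differing gene lists, so levels are compared within an ending. Of all barcode sequences, 22 occurred in 2 sets, and 2 selected cells carried one.

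Fibroblasts of the gut wall build the extracellular matrix between epithelium and muscle, around vessels and beneath the outer surface. Dpt (dermatopontin) binds decorin and collagen fibrils. Aspn (asporin) belongs to the small leucine-rich proteoglycans, which coat collagen. Mgp (matrix Gla protein) is a vitamin K-dependent inhibitor of calcification, Ltbp2 binds fibrillin microfibrils of the elastic fibre network, and Fndc1 encodes a protein with fibronectin type III repeats. In adult organs Dpt marks broad fibroblast populations, and fibroblasts near vessels carry Pi16, Dpp4 and Cd34. In the fetal gut, Hedgehog proteins from the epithelium act on mesenchyme through Ptch1 and the Gli factors, and subepithelial cells with high Pdgfra make BMP ligands.

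The 5 genes lie on different chromosomes in the mouse build GRCm38.p6 (mm10): Dpt at chr1:164796663-164824274, Aspn at chr13:49544443-49567565, Mgp at chr6:136872435-136875823, Ltbp2 at chr12:84783212-84876558 and Fndc1 at chr17:7738569-7827340. The windows from 250 bases before to 50 after the annotated start are printed for Dpt and Aspn, which gave most of the rule's UMIs, and for Ogn, a neighbour of Aspn whose level is described below. They come from RefSeq for GRCm38.p6, 5′ to 3′ on the strand of the gene, here the plus strand for all. Capitals mark matches on either strand to TATAAA, a motif of some core promoters, and to GGAATG, the sequence bound by TEAD factors.
Dpt promoter (chr1:164796413-164796712): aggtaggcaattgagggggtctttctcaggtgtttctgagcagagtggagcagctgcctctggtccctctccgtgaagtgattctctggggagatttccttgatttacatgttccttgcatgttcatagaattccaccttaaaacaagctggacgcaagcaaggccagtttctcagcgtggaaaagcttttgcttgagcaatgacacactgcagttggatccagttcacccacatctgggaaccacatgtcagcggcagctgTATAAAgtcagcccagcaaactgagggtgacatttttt
Aspn promoter (chr13:49544193-49544492): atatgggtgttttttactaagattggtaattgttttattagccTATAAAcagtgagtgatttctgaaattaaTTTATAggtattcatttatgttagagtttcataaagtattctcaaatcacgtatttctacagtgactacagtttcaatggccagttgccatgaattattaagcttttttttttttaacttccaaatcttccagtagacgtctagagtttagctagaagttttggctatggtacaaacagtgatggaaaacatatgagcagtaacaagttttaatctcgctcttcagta
Ogn promoter (chr13:49607765-49608064): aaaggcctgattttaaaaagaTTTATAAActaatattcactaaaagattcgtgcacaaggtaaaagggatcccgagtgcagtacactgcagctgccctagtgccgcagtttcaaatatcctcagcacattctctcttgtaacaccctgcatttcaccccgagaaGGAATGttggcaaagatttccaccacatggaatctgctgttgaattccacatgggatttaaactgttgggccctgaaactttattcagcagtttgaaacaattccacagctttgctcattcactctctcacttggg
The search also covered GGGCGG, a site of Sp factors, and TGANTCA, the site of AP-1. Of 32851 promoter windows of this length, 13.6% held TATAAA, 35.7% GGGCGG, 7.81% TGANTCA and 14.7% GGAATG. Dpt, Aspn, Ogn and Fndc1 held TATAAA, with the overlapping pair of matches in Ogn counted as 2. With the annotated start base as 0, these matches began at 12 in Dpt, at -207 and -178 in Aspn and at -229 and -227 in Ogn, none of them just upstream of the start, where a TATA element is known to act. Fndc1 and Ltbp2 held GGGCGG, Ogn alone held GGAATG, and none of these 5 windows held TGANTCA. The GC share was 31% at Aspn, 42.3% at Ogn, 48.7% at Dpt, 59.3% at Fndc1 and 61% at Ltbp2, against a median of 52.7% over all windows. Mgp had no entry in the table.

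The rule's own values describe how sharply the cells were cut from the rest, and nothing is read from them. In ending A the selected cells had between 16.4 and 78.7 rule UMIs per 10000 UMIs, with a median of 25.3. The next cell outside had 16.3. In ending B they had between 7.15 and 33.9, with a median of 10.0 and 7.14 in the next cell outside. Only 44 cells of ending B (0.633%) reached the threshold of ending A. A selected cell held 6 to 67 rule UMIs in ending A (median 22) and 2 to 22 in ending B (median 4), where 109 cells had fewer than 4.

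Dpt stood at 1034 CPM (counts per 1000000 UMIs) in the selected cells of A1 and 794 in A2, but at 186 in B1 and 140.1 in B2. Aspn was at 866 CPM in A1, 979.7 in A2, 751 in B1 and 734 in B2. Mgp was at 478 and 573 CPM in A1 and A2, and at 145 and 147 in B1 and B2. These levels follow from the choice, which had a lower threshold in ending B. Ltbp2 was at 35.9 CPM in ending A and rested on 2 UMIs in ending B, and Fndc1 was at 305 and 74.4 CPM. In ending A, Dpt gave 34.1% of the rule UMIs and Aspn 33.9%. In ending B, Aspn gave 64.9%, and 114 of 347 cells were selected on Aspn alone.

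Each gene of the rule was also left out of the choice in turn, and the top 5% were taken by the other 4. The 5 genes were chosen with earlier results of these data known, so the ratios below are a description only. In ending A, Dpt was at 721 CPM (688 to 755) in cells chosen without it and at 24.0 in the remaining cells, a 30.0-fold ratio. The left-out gene was 19.1-fold higher for Aspn, 21.2-fold for Mgp, 33.9-fold for Ltbp2 and 17.5-fold for Fndc1. In ending B the ratios were smaller: 3.97-fold for Dpt (59.1 against 14.9 CPM), 2.87-fold for Aspn, 2.22-fold for Mgp and 3.44-fold for Fndc1. Ltbp2 in ending B had 2 UMIs in the chosen cells, and the interval of its log2 ratio ran from -1.49 to 4.11. The cells chosen without Aspn in ending B numbered 231, of which 143 were also selected by all 5 genes.

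**Figure D1:**
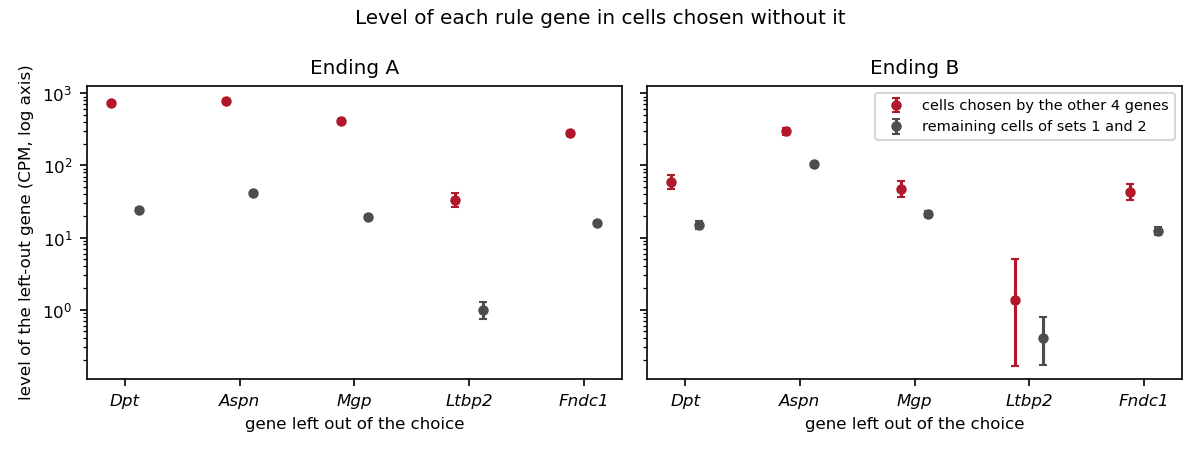
Level of each rule gene (CPM, log axis) in cells chosen by the other 4 genes (red) and in the remaining cells of the first and second sets (grey), by ending, with exact 95% counting intervals. All 5 genes lie 17.5-fold or more apart in ending A, and Dpt, the widest of those resting on more than 2 UMIs, 3.97-fold in ending B. The genes were chosen with earlier results of these data known.

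Single cells of ending A carried several rule genes, and those of ending B mostly 1 or 2. At least 3 of the 5 genes were detected in 93.7% of selected cells in ending A and 15.3% in ending B. With each cell thinned to 2000 UMIs these shares were 48.4% and 3.17%, against 0.586% and 0 of 4385 in the remaining cells. Dpt and Aspn were found together in 90.2% of selected cells of ending A and 28.8% of ending B. These counts follow from the choice of cells by the same genes and are given as a description only. The endings are reported separately.

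**Figure D2:**
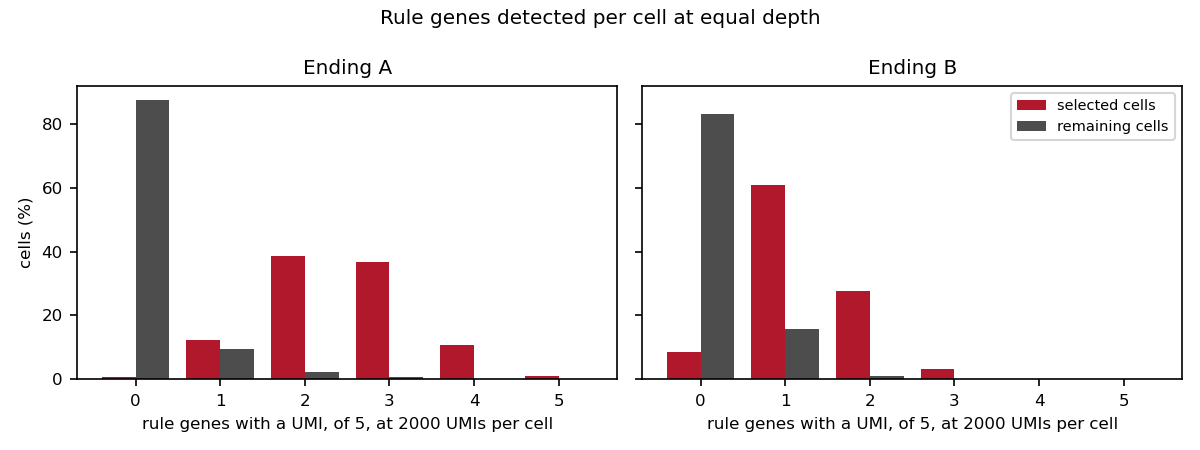
Share of cells (%) by the number of rule genes detected at 2000 UMIs per cell, for selected (red) and remaining cells (grey). In ending A 48.4% of selected cells show 3 or more genes and in ending B 3.17%.

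The selected cells also lay together when all cells were clustered in each ending without the 5 genes, by 2000 variable genes. In ending A, 250 of 287 (87.1%) fell in 1 of 17 clusters, a cluster of 363 cells of which 68.9% had been selected. Outside the rule genes, its leading genes by fold were Vegfd, a growth factor for lymphatic vessels, Scube2, Qpct, Cpz and Ms4a4d. In ending B, 265 of 347 (76.4%) fell in 1 of 13 clusters, but this cluster held 1298 cells and only 20.4% of it had been selected. It was led by Ogn, Lrat, Cxcl13, Ephb1 and Dab1. With the next cluster added, the shares were 94.4% (91.1 to 96.8) and 87.0% (83.0 to 90.4). Cluster limits depended on the resolution of the clustering, here 1. At 0.5 the leading cluster of ending A had 764 cells, of which 34.2% had been selected. At 1.5 the leading cluster of ending B held 45.8% of the selected cells and was 30.9% selected.

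The cluster of ending A also held 113 cells that the rule had not taken. These had 1075 CPM of rule genes, against 2786 in the selected ones, and Dcn at 4684 against 5698 CPM. Cxcl13 was at 1573 CPM in these unselected cells and 1318 in the selected ones. Ogn (928 against 1487 CPM), Grem1 (57.0 against 122) and Clec3b (10.6 against 28.8) were lower in the unselected cells, and the cycling list was higher (1340 against 874 CPM). In ending B the cluster held 1033 unselected cells, with rule genes at 233 against 1147 CPM in the selected ones. Their cycling list was at 695 against 694 CPM, the Hedgehog list at 720 against 713 and basement membrane at 795 against 765. The levels of these lists in ending B were thus shared by the whole cluster. The selected cells outside the main cluster, 37 in ending A and 82 in ending B, differed in cell cycle genes and in others. The 24 genes of the cycling list summed to 7221 and 5590 CPM there, against 874 and 694 CPM inside. Ogn was at 553 and 394 CPM there, against 1487 and 1117 CPM inside. In ending A, Col6a5 was at 239 CPM in these cells and 30.2 inside. The second cluster was led in ending A by Cdkn2c and Col6a5, and in ending B by Mxd3, Foxm1 and Kif23, genes of dividing cells. Of the 37 cells of ending A, 21 lay in the second cluster and 11 in a cluster led by Col6a5 and Wfdc1.

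**Figure D3:**
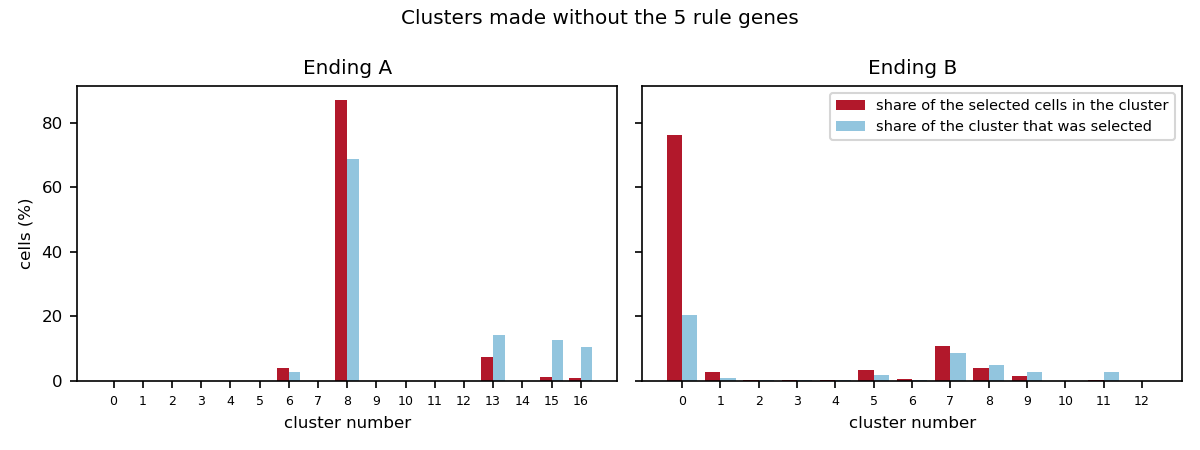
Share of the selected cells found in each cluster (red) and share of each cluster that was selected (blue), in %, for clusters made without the rule genes at resolution 1. One cluster holds 87.1% of selected cells in ending A and 76.4% in ending B, and it is 68.9% and 20.4% selected.

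Across the genome, 7224 genes other than the rule genes reached 20 CPM in selected or remaining cells of ending A. Of these 556 (7.7%) were 2-fold or more higher in the selected cells and 517 (7.16%) 2-fold or more lower. In ending B 110 of 5926 genes (1.86%) were higher and 139 (2.35%) lower. Of 5665 genes at this level in both endings, 89 (1.57%) were higher in each and 58 (1.02%) lower in each. Every gene past 2-fold in an ending had the same sign in both of its sets. The 89 shared genes are 85.6% of the 104 higher genes of ending B that could also be compared in ending A and 26.3% of the corresponding 338 of ending A. Without Aspn in the share, 52 genes were higher in both endings, 44 of them among the 89. A gene under 20 CPM in one class and not in the other passed the minimum only through the class where it was higher. This held for 287 of the 556 higher and 254 of the 517 lower genes of ending A, and for 47 of 110 and 100 of 139 in ending B, so counts over genes that passed lean towards a difference. The median log2 ratio of all genes was -0.12 in ending A and -0.0044 in ending B.

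Sema3d, a guidance molecule of the semaphorin family, was at 133 CPM in selected cells of A1, 127 in A2, 36.9 in B1 and 55.5 in B2, against 7.67 to 10.3 in the remaining cells. The selected cells were the higher ones in each set. Its log2 ratio, selected over remaining cells, was 4.07 (3.86 to 4.28) in ending A and 2.23 (1.81 to 2.63) in ending B. Cxcl13, the chemokine that draws B cells into lymphoid tissue, was at 1164 and 1283 CPM in A1 and A2 and at 1061 and 1192 CPM in B1 and B2, against 112 to 291. The log2 ratios were 3.37 and 1.93. Lrat, which stores vitamin A as retinyl esters, had log2 ratios of 3.41 (3.21 to 3.60) and 1.99 (1.66 to 2.31).

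Prss35, a protease-like secreted protein, had log2 ratios of 3.80 in ending A and 2.15 in ending B. Scube2, a secreted protein that helps release lipid-bound Hedgehog, had 4.17 and 2.02. Spon2, a matrix protein that also binds microbial products, had 4.11 and 1.83, with 376 and 142 CPM in the selected cells. Dkk2, a secreted modulator of WNT receptors, had 2.87 and 1.80. Pi15, Pid1, the protocadherin gene Pcdh19 and Dab1, an adaptor of the reelin pathway, had log2 ratios between 1.91 and 3.58 in ending A and between 1.80 and 1.90 in ending B. These and Ogn are the 12 genes with the highest ratio in the ending where they were nearer to 1.

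Ogn, the small leucine-rich proteoglycan osteoglycin, lies at chr13:49608015-49624501, within 200 kb of Aspn. It was at 1358 and 1313 CPM in selected cells of A1 and A2 and at 877 and 970.2 in B1 and B2, against 121 to 237 in the remaining cells. The selected cells were higher in all 4 sets, with log2 ratios of 3.44 (3.38 to 3.50) and 1.96 (1.87 to 2.04). Other genes around Aspn varied in direction. Cenpp, a centromere gene that spans Aspn and Ogn, was lower in ending A (15.4 against 43.6 CPM), and Nol8 was at 14.6 against 29.4 CPM. Ecm2 and Omd, further leucine-rich repeat genes of this cluster, stayed under 20 CPM. Their log2 ratios were 1.72 and 1.73 in ending A, on 35 and 6 UMIs in the selected cells. In ending B they were -1.30 and 1.78, on 1 and 3 UMIs. The counting of reads in overlapping genes on opposite strands is not stated in the sources used here, so reads of Cenpp and of the genes it spans may not be separable.

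The 12 genes with the lowest shared ratios were led by Foxl1. This Hedgehog-responsive factor of subepithelial cells had 4 UMIs in the selected cells of ending A and 2 in ending B, or 1.58 and 1.38 CPM, against 23.4 and 28.2 CPM. Its log2 ratios were -3.89 (-5.77 to -2.53) and -4.36 (-7.41 to -2.50). Bmp5, a BMP ligand, was at 2.76 against 41.9 CPM and at 5.51 against 30.0 CPM. Dll1, a Notch ligand, had log2 ratios of -3.14 and -3.54, and Nrg1, a ligand of ErbB receptors, -3.26 and -2.58. Procr, the protein C receptor, had -3.66 and -3.62. Apela, a peptide ligand of the apelin receptor, was at 0.789 against 33.9 CPM and 11.0 against 120.7 CPM. Has2, the main hyaluronan synthase of embryos, had log2 ratios of -4.53 and -2.34, and Gja1, the gap junction protein connexin 43, -2.46 and -2.73. Plk2, Pla2g4a, Dach1 and Id1 had ratios between -2.80 and -2.16 in ending A and between -2.51 and -2.04 in ending B.

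**Figure D4:**
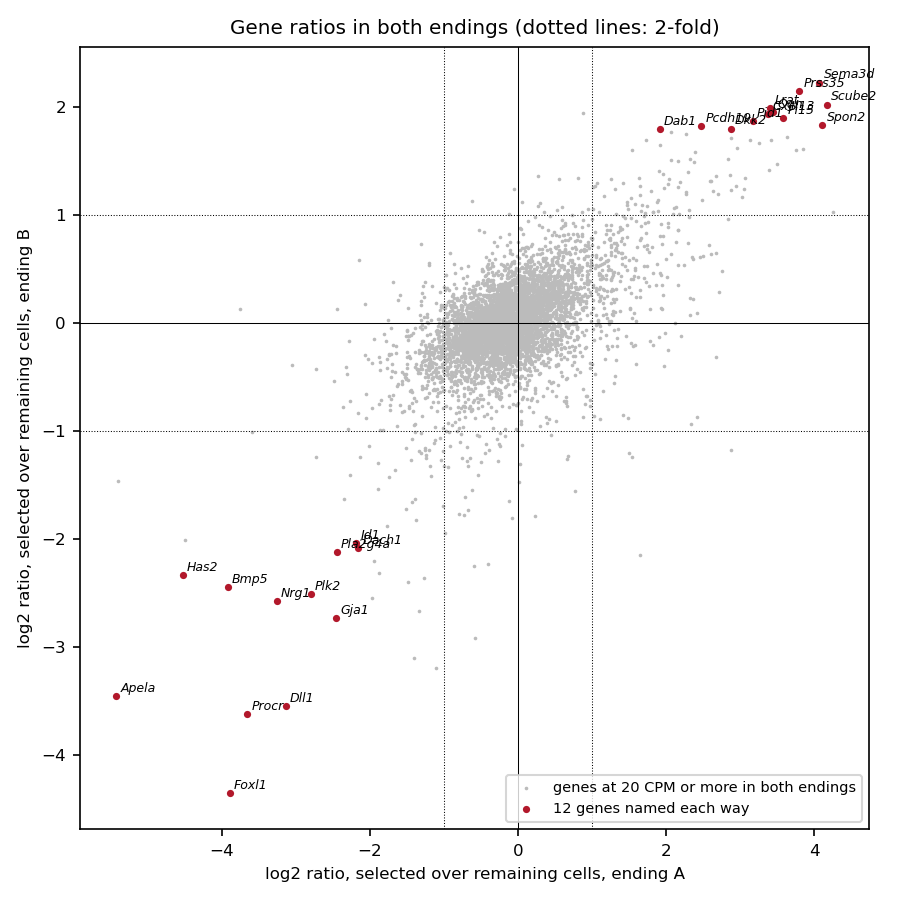
Log2 ratio of selected over remaining cells in ending A (x axis) and ending B (y axis) for genes at 20 CPM or more in both (grey), with the 12 highest and 12 lowest shared ratios in red. Dotted lines mark 2-fold, and the spread is wider along the axis of ending A.

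Of the matrix lists (proteoglycans, collagens, elastic fibre and basement membrane), the small leucine-rich proteoglycans had the largest summed ratio in both endings. All 4 of its members at 20 CPM were 2-fold or more higher in ending A and 2 of 4 in ending B, with median log2 ratios of 2.68 and 1.21. Of all genes compared, 7.7% were that much higher in ending A and 1.86% in ending B. Dcn (decorin), the partner of dermatopontin, was at 5582 against 522.5 CPM in ending A and at 2040 against 629 CPM in ending B, with log2 ratios of 3.42 (3.39 to 3.45) and 1.70 (1.64 to 1.76). Lum (lumican) had 1.75 and 0.72, and Bgn (biglycan) 1.95 and 0.13. Bgn and Lum were therefore under 2-fold in ending B. Summed, the list stood at 8369 against 1066 CPM in ending A and 3784 against 1405 CPM in ending B. Without Dcn the sums were 2787 against 544 CPM and 1743 against 776 CPM.

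Collagens followed the same order. In ending A 13 of 14 listed collagens at 20 CPM were 2-fold or more higher, in ending B 4 of 12, with median log2 ratios of 2.07 and 0.61. Of all genes compared, 7.7% were that much higher in ending A and 1.86% in ending B. Col1a1, a chain of type I collagen, was at 8436 against 1299 CPM and at 5534 against 2423 CPM. Col3a1, Col14a1 and Col16a1 were also past 2-fold in both endings, with log2 ratios of 2.27, 1.82 and 2.27 in ending A and 1.21, 1.03 and 1.20 in ending B. Col6a1 and Col6a2, chains of the beaded-filament collagen VI, were higher in ending A (1.20 and 1.33) and at -0.21 each in ending B. Col11a1 was the exception in ending A, at -0.75.

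The elastic fibre list had 12 of 15 genes 2-fold or more higher in ending A and 4 of 14 in ending B, none lower, with medians of 1.53 and 0.51. The shares of higher genes among all compared were 7.7% and 1.86%. The 4 shared genes were Mfap4, a microfibril protein (3183 against 382 CPM, and 1510 against 595), Fbln5, which links elastin to cells (log2 2.32 and 1.52), and the crosslinking enzymes Lox (3.50 and 1.47) and Loxl1 (2.83 and 1.52). Eln, elastin itself, had 2.67 and 0.64. Fbn1, the main microfibril protein, had 2.31 and 0.98, and Ltbp3 and Ltbp4, relatives of the rule gene Ltbp2, had 2.35 and 1.53 in ending A and 0.61 and 0.41 in ending B. Efemp2 (0.51 and 0.24), Emilin1 and Ltbp1 stayed under 2-fold in both.

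Basement membrane genes differed in direction between endings, which was not tested. In ending A the list summed to 1939 against 1114 CPM (log2 0.80), with 4 of 9 genes 2-fold or more higher (7.7% of all genes). In ending B it was lower in the selected cells, at 844 against 1266 CPM (log2 -0.59, -0.67 to -0.50). Lama2, the laminin chain of muscle and mesenchyme, was the 1 member past 2-fold in both (2.29 and 1.40). It was 1 of 9 members at 20 CPM in both endings, and 1.57% of all genes were higher in each. In ending B Lama2 passed the minimum only through the selected cells. The 1 member 2-fold or more lower in ending B passed it only through the remaining cells. Col4a1 had 1.04 in ending A and -0.47 in ending B, Lamb1 0.19 and -0.82, and Lama4 0.29 and -0.95. Of the genes that activate Mgp, Ggcx, the vitamin K-dependent carboxylase, had log2 ratios of 1.18 and 0.44, and Vkorc1, which recycles vitamin K, 1.27 and 0.43.

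Markers of fibroblasts beside vessels summed higher in the selected cells of ending A, and in ending B the interval of their ratio held 0. Of 16 listed genes, 5 reached 20 CPM in ending A: Cd55, a complement inhibitor (112 against 6.36 CPM), Cd34 (45.4 against 4.25), Sema3c (55.3 against 8.65), Clec3b (27.2 against 1.94) and Gsn (211 against 92.2). The first 4 reached the minimum only through the selected cells, so their being past 2-fold is no count in support. The list summed to 491 against 150.3 CPM (log2 1.71, 1.62 to 1.79). In ending B only Sema3c and Gsn reached 20 CPM, neither past 2-fold, and the sum was 166 against 159.5 CPM (log2 0.06, -0.14 to 0.25). The defining markers were near 0 in ending A: Pi16 at 0.395 CPM, Dpp4 at 4.74 CPM and Ly6a at 0. In ending B Pi16, Ly6c1 and Clec3b had no UMI. The cells are therefore called by the genes of the rule and not as adventitial fibroblasts.

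General fibroblast markers split. Col1a1 and Col3a1 were higher as given, and Col1a2 was at 6912 against 973 CPM in ending A and 2590 against 1326 CPM in ending B (log2 2.83 and 0.97), while the receptors Pdgfra and Pdgfrb were lower in the selected cells of both endings. Pdgfra, the gene that drives the reporter, was at 115 against 153 CPM in ending A (log2 -0.42, -0.59 to -0.25) and at 79.9 against 112 CPM in ending B (-0.48, -0.76 to -0.21). Pdgfrb had -1.01 and -0.78. Vim had 0.15 and -0.24, and Thy1 stayed at 1.58 CPM or less.

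In the Hedgehog list no gene was 2-fold or more higher in both endings, and 3 of 9 were lower in both (1.02% of all genes). Of these 3, 2 in ending A and 1 in ending B passed the minimum only through the remaining cells. Ptch1, receptor and target of Hedgehog, was at 192 against 442 CPM in ending A and 236 against 533 CPM in ending B (log2 -1.21 and -1.18). Hhip, a target that binds the ligands, had -2.73 and -1.24, and the target Foxf2 -2.02 and -1.14. The 8 listed markers of PDGFRA-high subepithelial cells summed to 239.9 against 195 CPM in ending A and 107 against 196 CPM in ending B. Without its highest gene, Tnc, the sum of ending A was lower in the selected cells, at 118 against 187 CPM (log2 -0.66, -0.83 to -0.49). Without Pdgfra that of ending B was 26.9 against 84.5 CPM. Of the 2 markers at 20 CPM in both endings, 1 was 2-fold or more lower in both, and it passed the minimum only through the remaining cells. Gli1, another Hedgehog target, had -0.63 and -0.42. In ending B the co-receptor Gas1 was higher, at 1.35, and so was Gli2, at 1.05, and these had 0.80 and 0.53 in ending A. Of 9 Hedgehog genes at 20 CPM in ending B, 2 were 2-fold or more higher (1.86% of all genes). Of these 2, 1 passed the minimum only through the selected cells.

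BMP genes were mixed. Id1 and Id3, targets of BMP signals, had log2 ratios of -2.18 and -1.18 in ending A and -2.04 and -1.41 in ending B. Of the ligands, Bmp5 is given above, Bmp3 had -0.58 and -2.92, Bmp7 -3.94 and -2.11, and Bmp4 0.05 and -0.31. Of 12 listed BMP genes at 20 CPM in both endings, only 3 were 2-fold or more lower in each (1.02% of all genes). Of the antagonists, Grem1 was at 109.7 against 8.09 CPM in ending A (log2 3.76) and at 17.2 against 6.50 CPM in ending B (1.40), under the minimum there. Chrdl1 was at 32.0 against 6.24 CPM in ending A (2.36) and 6.89 against 1.85 CPM in ending B, also under the minimum. Nog stayed under 5 CPM, and Twsg1, which binds BMPs, had 0.65 in ending A and -0.74 in ending B. The whole list had 4 of 14 genes higher and 4 lower past 2-fold in ending A and 0 higher and 5 of 13 lower in ending B. All genes had 7.7% higher and 7.16% lower in ending A and 1.86% and 2.35% in ending B. In ending A, 3 of the 4 higher and 2 of the 4 lower genes passed the minimum through 1 class only, as did 2 of the 5 in ending B.

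Of 11 TGF-beta genes at 20 CPM in ending A, 5 were 2-fold or more higher and 2 lower, and of 11 in ending B 1 was higher. Of all genes, 7.7% were higher and 7.16% lower in ending A, and 1.86% were higher in ending B. In ending A, 2 of the 5 higher and 1 of the 2 lower genes passed the minimum through 1 class only. Postn (periostin), a matrix protein induced by TGF-beta, was at 1082 against 131 CPM in ending A and 209 against 88.6 CPM in ending B (log2 3.05 and 1.24). Tgfbi had 1.55 and 0.41. The ligands Tgfb2 and Tgfb3 had 2.20 and 1.86 in ending A, where each was under 45.5 CPM, and 0.51 and 0.35 in ending B. Igf1 had 2.15 and 0.86. Igfbp5 was higher in both (2.06 and 1.77), while Igf2 was lower in ending A, at 152 against 399 CPM (-1.39). Dkk2 was the 1 WNT gene past 2-fold in both, of 5 at 20 CPM in both endings (1.57% of all genes were higher in each). In ending A Dkk2 passed the minimum only through the selected cells, with 13.8 CPM in the remaining ones. Its log2 ratio differed between sets of ending B, with 1.21 in B1 and 2.22 in B2. Rspo2 had 1.39 and 1.09, at 26.1 CPM in ending A and 18.6 in ending B, under the minimum there, and the WNT list as a sum had 0.02 and 0.08.

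Genes of the chemokine and lymphoid stroma list were led by Cxcl13. Of 10 listed genes at 20 CPM in ending A, 8 were 2-fold or more higher and 1 lower. In ending B 3 of 8 were higher and 1 lower. The shares over all genes were 7.7% and 7.16% in ending A and 1.86% and 2.35% in ending B, and 3 of the 8 and 1 of the 3 higher genes passed the minimum only through the selected cells. Without Cxcl13 the list summed to 1176 against 371 CPM in ending A (log2 1.66, 1.61 to 1.72) and to 422 against 456 CPM in ending B (-0.11, -0.23 to 0.01). Beside Cxcl13 the shared genes were Il33, an alarmin of the interleukin 1 family (log2 1.47 and 1.12), and Ccl2 (1.89 and 1.14), though Ccl2 differed between sets, with 2.38 in A1 and 1.10 in A2. Cxcl12 was at 612.5 against 102 CPM in ending A (2.58) and at 187 against 114 CPM in ending B (0.72). Ccl11 (eotaxin) went the other way, at 34.3 against 91.2 CPM and 22.7 against 195 CPM (-1.41 and -3.10). Complement genes C1s1, C1ra and Serping1 had 2.71, 2.85 and 1.29 in ending A, and Serping1 had 0.45 in ending B.

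Among 11 listed transcription factors at 20 CPM in both endings, 2 were 2-fold or more higher and 2 lower in each. Of all genes, 1.57% were higher and 1.02% lower in each. The higher ones were Foxp2 (log2 1.64 and 1.34) and Twist2 (1.32 and 1.01). In ending A, 2 of 4 higher and 2 of 4 lower factors passed the minimum through 1 class only. The same held for 1 of 2 higher and 2 of 3 lower factors in ending B. Osr1 was at 39.5 against 4.78 CPM in ending A (3.05) and at 13.8 CPM in ending B, under the minimum. Tcf4 and Tbx3 were lower in both (-1.02 and -1.69, and -1.24 and -1.25). Nkx2-3, a factor of midgut mesenchyme, had -0.79 and -0.53. Of the vitamin A genes, Dhrs3, which reduces retinal, was higher (2.38 and 1.5) and Aldh1a3, which makes retinoic acid, was lower (-1.88 and -2.32). The 1 vitamin A gene called lower in ending B passed the minimum only through the remaining cells.

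Fewer selected cells carried transcripts of dividing cells. At 2000 UMIs per cell, Mki67 or Top2a, both made in dividing cells, was detected in 17.1% (12.9 to 21.9) of selected and 46.9% (45.4 to 48.4) of remaining cells of ending A. In ending B the shares were 21.9% (17.7 to 26.6) and 32.0% (30.6 to 33.4). Before thinning they were 39.7% against 71.4% and 31.1% against 40.2%. The shares were alike in both sets of each ending, at 16.6% and 18.0% of selected cells in A1 and A2 and 23.8% and 19.5% in B1 and B2. Of 24 cycling genes, 16 were 2-fold or more lower in ending A (7.16% of all genes) and 1, Ube2c, in ending B (2.35% of all genes). The log2 ratios of Ube2c were -1.13 and -1.08.

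Stress genes and other technical measures differed with the selection, mainly in ending A. The 12 immediate early and stress genes, which tissue dissociation can raise, summed to 8839 against 3486 CPM (log2 1.34), with 10 of 12 past 2-fold, Fos at 2764 against 618 CPM, and Ier2 at -0.50. In ending B the sum was 3564 against 3001 CPM (log2 0.25) and 0 of 11 were past 2-fold. Of all genes compared, 7.7% were 2-fold or more higher in ending A and 1.86% in ending B. The 5 listed enterocyte genes, used as a gauge of free RNA from other cells, summed to 673 against 474 CPM in ending A and 30.3 against 33.7 CPM in ending B. Xist was detected at 2000 UMIs in 40.4% against 25.8% of cells in ending A, while ending B had 87.9% against 78.9%, and before thinning in 52.6% against 39.2% and 91.1% against 82.9%. Transcripts of Y-linked genes were detected in 19.9% against 19.5% and 3.75% against 4.99% (47.0% against 59.5% and 4.90% against 10.3% before thinning). The part of dissociation, of free RNA and of unequal shares of embryos or ages in the gene ratios was not tested.

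Markers of other lineages were summed in the same way. The 10 endothelial genes were at 20.1 against 11.5 CPM in ending A (1.76-fold) and 18.6 against 20.9 CPM in ending B. The 8 genes of other blood lineages were at 30.8 against 19.2 CPM (1.60-fold) and 43.4 against 43.8 CPM. The 9 mesothelial genes were at 17.0 against 10.9 CPM (1.55-fold) and 6.20 against 4.15 CPM, and the 11 epithelial genes at 72.6 against 54.9 CPM and 51.6 against 45.4 CPM. In ending A all 4 sums were higher in the selected cells, with intervals above 0 on the log2 scale, and their part in the gene ratios was not tested. Msln, Wt1 and Upk1b had no UMI in ending B. Red-cell genes summed to 62.4 against 47.4 CPM in ending A and to 2005 against 1806 CPM in ending B, where the log2 ratio was 0.64 in B1 and -0.46 in B2. Enteric glia genes were lower in the selected cells (71.4 against 224 CPM, and 137 against 448), with Ednrb at -1.77 and -1.88 and Sox10 at 0.789 and 1.38 CPM. Without Ednrb the list summed to 14.2 against 29.2 CPM in ending A (log2 -1.04, -1.56 to -0.57). In ending B it then summed to 21.3 against 21.5 CPM. Smooth muscle genes summed to 2386 against 2542 CPM and 2593 against 2050.4 CPM. Acta2 was lower in ending A (378 against 949.9 CPM, log2 -1.33) and at 0.07 in ending B. The pericyte gene Rgs5 was past 2-fold in both endings (1.17 and 1.18), while Notch3, Abcc9 and Kcnj8 were between -0.41 and 0.54. Of tendon genes, Thbs4 had 0.27 and 1.36, and Comp and Acan had no UMI in selected cells of either ending.

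Levels were also taken in bands of cells by rule share. In ending A, Dcn was at 6531 CPM in the top 1% of cells, 5357 in the next band to 5%, 3835 to 10%, 1033 to 25% and 249 in the rest. Grem1 ran from 199.8 through 88.4, 53.5 and 15.3 to 4.30 CPM, and Clec3b from 57.7 through 20.0, 10.9 and 3.50 to 1.16 CPM. Both had their highest level in the top 1% in ending A. Neither did in ending B, where Grem1 was at 11.2 CPM in the top 1%, on 3 UMIs, and at 18.6 in the next band. Clec3b had no UMI in these 2 bands of ending B and 1.35 CPM in the band to 10%, on 2 UMIs. In ending B, Dcn ran from 2217 through 2000.4, 1495 and 996 to 403 CPM, and Lox from 165 through 133, 124 and 85.2 to 29.1 CPM. The cycling list went the other way in ending A, from 974 through 2134, 2685 and 3260.4 to 4467 CPM. In ending B it ran from 1525 through 2238, 2487 and 3601 to 2660.3 CPM. Other lists had no single direction: smooth muscle ran from 2095 through 2454, 3050.0 and 3121 to 2410.5 CPM in ending A, and basement membrane from 1926 through 1942, 1966 and 1460.5 to 1005 CPM.

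**Figure D5:**
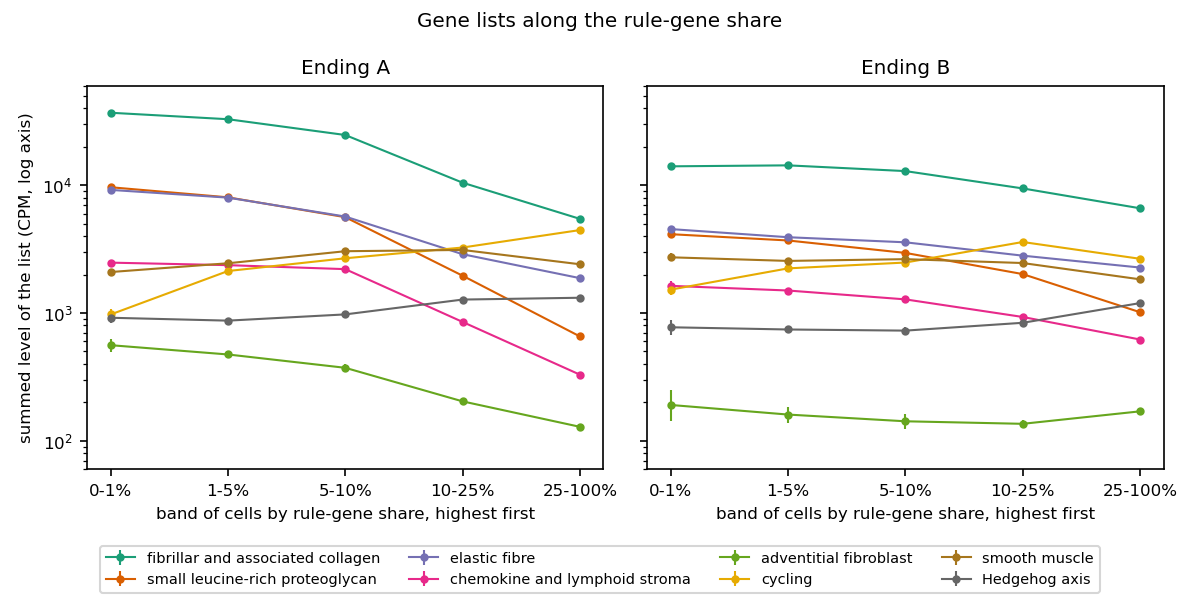
Summed level (CPM, log axis) of 8 gene lists in bands of cells ordered by rule-gene share, highest first, with exact 95% counting intervals that are mostly smaller than the points. The proteoglycan, elastic fibre and chemokine lists decline from band to band in both endings, and the adventitial list runs from 560 to 129 CPM in ending A and from 191 to 170.0 CPM in ending B.

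Col6a5, a marker of other fibroblasts here, was not highest where the rule share was highest. In ending A it was at 6.18 CPM in the top 1%, 78.1 to 5%, 317 to 10%, 243 to 25% and 59.2 in the rest. Cells chosen by the same rule from Col6a5, Lepr and Wfdc1 shared 5 cells with the 287 in ending A (1.74% of each group). In ending B they shared 1, which is 1.19% of 84 and 0.288% of 347. Lepr itself was higher in the selected cells of ending A (39.5 against 8.73 CPM). The overlap with cells chosen from Sptssb, Rspo2 and Dab1 was larger: 72 cells in ending A, 25.6% of 281 and 25.1% of 287, and 35 in ending B, 19.9% of 176 and 10.1% of 347. Sptssb, which acts in sphingolipid synthesis, had log2 ratios of 1.91 and 1.65 in the selected cells.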

How the data were processed

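The authors deposited 1 matrix of raw UMI counts per gene and cell for all samples, as its whole numbers show, with 24568 gene symbols, 13127 barcodes and 100735249 UMIs. Cells were labelled with lipid-bound barcodes (MULTI-seq) and captured with 10x Chromium v3 chemistry for RNA 3′ ends, per the labels' protocols. Cell Ranger 2.1.1, Seurat and mm10 are named in the submitters' processing notes. The annotation used and any filter on cells were not given in the sources used here. For selected and for remaining cells, the UMIs of each gene were added up and scaled by the sum over all genes (CPM), with exact Poisson, Clopper-Pearson (shares) and conditional binomial (ratios) 95% intervals from scipy 1.17.1. Genes with at least 20 CPM in selected or remaining cells were compared, and 2-fold or more was called higher or lower. No label ties cells to replicates, so no test was made. Thinning drew 2000 UMIs per cell without replacement, and 23 remaining cells of ending B and 3 of ending A were too shallow. Clusters came from 2000 variable genes with scanpy 1.11.5 and leidenalg 0.10.2 at resolution 1, in each ending. Scrublet, run per set, called 0.331% of cells in ending A, under the share at which it is taken to have worked, and 0.662% in ending B, so called doublets were kept. The ratio step was tested on simulated data, with 200 genes changed among 6604 in ending A and 5601 in ending B. The direction was recovered for 100% in each, and intervals covered the true ratio for 96% and 94%. Counts were drawn as independent Poisson values, the model that the intervals assume, so this checks the calculation only. Variation between cells or embryos and the choice of cells were not simulated.

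The text names the rule genes, the 12 highest and 12 lowest ratios ranked by the ending nearer to 1, and in each gene list up to 4 genes at either end. Genes named outside these rules (cluster leaders, neighbours of Aspn, and others given for their role) were chosen after their values were seen. The members and lists were chosen with earlier results of these data known.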

Additional observations from a re-analysis of the deposited data

Results flagged for a closer look

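For 6 genes given here the log2 ratio of selected over remaining cells had one sign in A1 and A2 and the other in B1 and B2. Each ratio was at least 0.5 in size. Genes with smaller ratios also differed in sign between the endings and are not listed. The difference was not tested. Bmp2, a BMP ligand, had 2.39 in A1 and 2.44 in A2, but -0.881 in B1 and -0.963 in B2. Twsg1, which binds BMPs, had 0.609 and 0.705 against -0.829 and -0.932. Col4a2, a basement membrane collagen, had 1.14 and 1.15 against -0.722 and -0.764. Csf1, the macrophage growth factor, had 0.955 and 0.986 against -0.893 and -1.14. Igfbp2, a binding protein of insulin-like growth factors, went the other way, with -1.4 and -1.21 against 0.688 and 0.798. Nr2f1, a nuclear receptor, had -0.992 and -1.63 against 0.555 and 0.596.

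Selected cells also occurred in the third sets, which the comparisons did not use: 2 in A3 (0.169% of 1185 cells, 0.0204 to 0.608) and 11 in B3 (0.50% of 2202, 0.25 to 0.892). The small leucine-rich proteoglycans summed to 9529 CPM in the 2 cells, on 152 UMIs, and to 2241 CPM in the 11 cells, on 102 UMIs. The other cells of these sets had 539.5 and 503 CPM. PDGFRA-high markers went the other way, at 313 against 1738 CPM in A3 and 308 against 851 CPM in B3.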

How the results depend on the processing

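The count of genes higher in both endings (89) moved to 52 without Aspn in the share, 59 with a 50 CPM minimum and 564 with none, and lay between 73 and 120 in the other alternatives. The count lower (58) moved to 105 with the top 2% of cells, 35 with the top 10%, 20 with a 50 CPM minimum and 261 with none. Fewer genes pass the higher minimum by construction. For the remaining moves the cause was not tested. The adventitial log2 ratio of ending A (1.71) moved to 1.59 as a mean of per-cell CPM, 1.26 in cells without Mki67 or Top2a and 1.80 in A2 alone. That of ending B (0.06) moved to -0.30 without those cells (-0.55 to -0.05) and -0.22 in B2 alone. These single-set settings, the summing of 170 older symbols with newer ones, and the restriction to cells with 3 or more rule genes were added after seeing the data.

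The share of cells with Mki67 or Top2a was lower in selected than in remaining cells under every depth and gene set tried. In ending A the remaining cells had 37.2% at 1000 UMIs and 53.0% at 3000, and with Mki67 alone the shares were 10.1% and 30.6%. In ending B they were 15.9% and 25.8% at 1000 UMIs, 27.5% and 37.8% at 3000, and 5.48% and 11.2% with Mki67 alone. The selected share of ending A was 7.02% in the top 2% of cells and 22.9% in the top 10%. The leading 2 clusters held 98.3% (resolution 0.5) and 90.2% (1000 variable genes) of selected cells in ending A, and 93.9% (resolution 0.5) and 71.8% (resolution 1.5) in ending B. No paired analysis was possible because the barcode suffixes carry no replicate number of the labels. In ending B, 109 selected cells rest on fewer than 4 rule UMIs, and the part of depth in its smaller ratios was not tested. Age and segment cannot be told apart from the barcode sets.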

Other observations

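Some of the largest ratios of ending A belonged to genes that, Sulf1 aside, were under the minimum in ending B; those given here were chosen after their values were seen. Dpep1, a membrane dipeptidase, was at 88.4 against 2.60 CPM in ending A (log2 5.09, 4.78 to 5.40) and at 4.82 against 2.40 CPM in ending B (1.00, -0.38 to 2.16). Vegfd was at 93.9 against 3.14 CPM in ending A (4.90) and at 15.1 against 2.55 CPM in ending B (2.57). Tnxb (tenascin X), a matrix protein of loose connective tissue, was at 88.0 against 5.47 CPM in ending A and at 8.26 against 1.70 CPM in ending B. Tnc (tenascin C), often used for subepithelial mesenchyme, was at 122 against 8.26 CPM in ending A and at 13.1 against 3.05 CPM in ending B. Sulf1, which trims sulfates from heparan sulfate chains, was at 185.5 against 9.73 CPM (log2 4.25) in ending A and at 33.1 against 16.3 CPM (1.02) in ending B.

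Hmga2, Igf2bp1 and Mycn, also chosen after their values were seen, were lower in the selected cells of ending A. Hmga2, a chromatin protein, was at 37.5 against 452 CPM in ending A (log2 -3.59, -3.90 to -3.30) and at 56.5 against 113 CPM in ending B (-1.01, -1.34 to -0.69). Igf2bp1, an RNA-binding protein, was at 18.2 against 98.6 CPM in ending A (-2.44) and at 33.1 against 30.1 CPM in ending B (0.13, -0.32 to 0.56). Mycn was at 2.37 against 25.3 CPM in ending A and at 4.82 against 10.1 CPM in ending B. The difference between endings was not tested.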
